A study of Mus musculus with 6 samples.

Results

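The 10 genes of vasoactive receptors and cyclic GMP signalling described here were measured in cultured mouse aortic smooth muscle cells after inhibition of gamma-secretase, the enzyme that releases the active part of Notch receptors and cuts other membrane proteins too. They were chosen by symbol from the 37309 gene rows of the deposited table, and each of the 10 symbols had 1 row. The genes were *Edn1*, *Ednra*, *Ednrb*, *Agtr1a*, *Gucy1a3*, *Gucy1b3*, *Prkg1*, *Pde5a*, *Npr2* and *Npr3*. In the DAPT group, 3 libraries came from cells given the gamma-secretase inhibitor DAPT at 50 uM for 3 days. In the vehicle group, 3 libraries came from cells given DMSO for the same time. The cells of both groups (ImSMC) were vascular smooth muscle cells whose source was the Immorto mouse, descending aorta. This mouse carries a conditional large T antigen that lets its cells grow in culture. Nothing in the labels says whether the 3 libraries of a group came from separate cultures or animals, so p-values measure the spread between these libraries, which may be technical. Totals of reads assigned to genes were 12159930 to 13488512 in the DAPT libraries and 10702548 to 14503665 in the vehicle libraries.

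Endothelin-1, the peptide encoded by *Edn1*, is cut from a larger precursor and contracts smooth muscle through the receptor ETA (*Ednra*), while the receptor ETB (*Ednrb*) is best known for releasing nitric oxide from endothelium and for clearing the peptide. Angiotensin II contracts the same cells through the AT1 receptor, of which *Agtr1a* is the main form in mouse arteries. Cyclic GMP opposes contraction. It is made by soluble guanylate cyclase, a dimer of an alpha chain (*Gucy1a3*) and a beta chain (*Gucy1b3*) that nitric oxide activates, and by membrane cyclases such as the receptor for C-type natriuretic peptide (*Npr2*). It acts largely through the kinase encoded by *Prkg1* and is broken down by phosphodiesterase 5 (*Pde5a*), while *Npr3* encodes a receptor with no cyclase domain that removes natriuretic peptides.

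Under DAPT the messages for the contracting peptide endothelin-1, the clearance receptor *Npr3* and the alpha chain of soluble cyclase fell, and that for the cyclase receptor *Npr2* rose slightly. *Edn1* was 2.12-fold lower, *Npr3* 1.68-fold lower and *Gucy1a3* 1.24-fold lower, and *Npr2* was 1.13-fold higher. Of the 10 genes 9 were read well enough to be tested: 1 rose, 3 fell and 5 missed the threshold. The test was limma on log2 of the normalised read count plus 1, adjusted over all 14906 genes that had a normalised count of at least 10 in at least 3 libraries. Over those 14906 genes 18.1% passed an adjusted p of 0.05, 9.22% higher and 8.91% lower under DAPT, with a median log2 change of 0.000902. In the authors' deposited table the same 4 genes, *Edn1*, *Gucy1a3*, *Npr2* and *Npr3*, had an adjusted p below 0.05, where 6.19% of the 22960 genes with such a value did. In 7 of the 10 genes the DAPT libraries did not overlap the vehicle libraries, 6 of them lower and 1 higher. Among all tested genes 33.3% showed no overlap, 16.8% higher and 16.4% lower. The 6 lower genes include *Agtr1a*, which lay under the filter, whereas these shares cover tested genes only. With bulk RNA, fewer cells of a type and less RNA per cell cannot be told apart in any of these values.

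**Figure D1:**
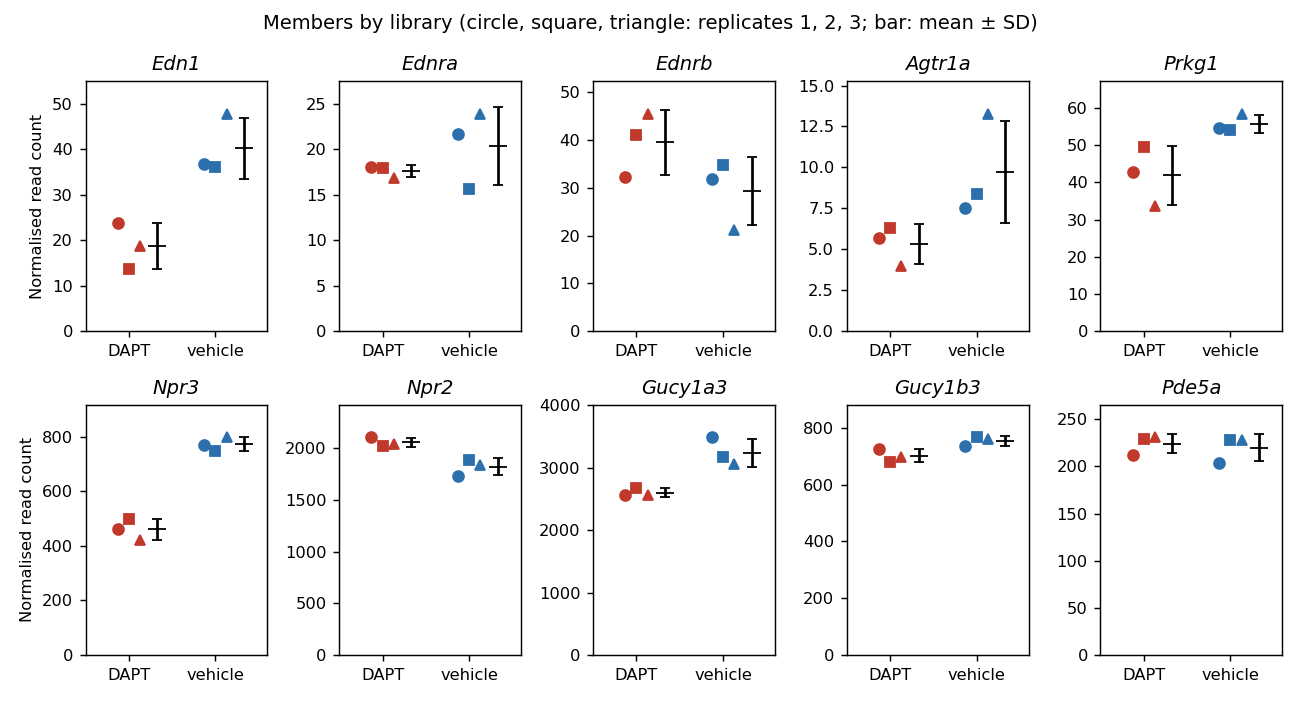
Normalised read count (vertical axis, from 0) of each of the 10 genes in the 3 DAPT libraries (red) and the 3 vehicle libraries (blue), with mean and SD beside each group. The red points of *Edn1* (13.7 to 23.7) and *Npr3* (421 to 500) lie below all blue points, those of *Npr2* lie above them, and the groups of *Ednra*, *Ednrb* and *Pde5a* overlap.

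The groups were checked on known genes. *Hes1*, a direct Notch target, was at 211 ± 11.5 in DAPT and 326 ± 5.88 in vehicle libraries (SD, n = 3 each), 1.54-fold lower (limma adjusted p = 6.35e-07). Over all tested genes 9.22% rose and 8.91% fell, against which the counts of markers are to be read. Of 9 smooth muscle markers tested of 10 listed, 4 fell and 0 rose. Among those that fell, the contractile genes *Acta2* (222 to 272 in DAPT, 476 to 576 in vehicle libraries) and *Tagln* (461 to 533 in DAPT, 856 to 971 in vehicle libraries) were read in every library. The smooth muscle myosin gene *Myh11* was at 42.6 to 50.2 in DAPT and 44.3 to 51.7 in vehicle libraries and did not pass. Neither did *Cald1*, at 8459 ± 166 in DAPT and 8606 ± 198 in vehicle libraries. *Smtn* did not pass either, at 1069 ± 33.9 in DAPT and 1078 ± 17.0 in vehicle libraries. *Myocd*, a defining factor of the type, was at or near 0 in both groups. Of 8 mesothelial markers 6 fell, with summed levels of 3477 to 3548 in DAPT and 5601 to 5738 in vehicle libraries. Of 8 adventitial fibroblast markers 5 fell and 1 rose, with sums of 29417 to 30924 in DAPT and 28648 to 30798 in vehicle libraries. These sums mix opposite changes of abundant genes. *Ly6a* rose, at 10868 ± 454 in DAPT and 9435 ± 244 in vehicle libraries. *Dcn* fell, at 9985 ± 484 in DAPT and 10989 ± 518 in vehicle libraries. The part of any of these marker lists in the changes of the 10 genes was not tested.

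*Edn1* (chromosome 13) was the only ligand among the genes. Its normalised counts were 23.7, 13.7 and 18.8 in DAPT replicates 1 to 3, and 36.7, 36.0 and 47.8 in vehicle replicates 1 to 3. All DAPT libraries lay below all vehicle libraries, although the gene was read weakly, with 11.5% of tested genes at a lower mean. The log2 change was -1.08 (SE 0.229, 95% interval -1.55 to -0.61, limma adjusted p = 0.00134). In the authors' deposited table its adjusted p was 0.00532. The call was lost with DESeq2 on the 5 libraries whose reads could be recovered (log2 change -1.10, adjusted p = 0.0537), and over the alternatives that tested it the adjusted p ran between 0.00071 and 0.0537. Endothelial cells are the usual source of endothelin-1, and of 10 endothelial markers 5 were tested, 0 rose and 0 fell. Their summed level was 639 to 661 in DAPT and 642 to 695 in vehicle libraries, of which *Kdr* alone gave 513 to 541 in DAPT and 530 to 562 in vehicle libraries. The defining markers *Pecam1* (1.98 to 3.16 in DAPT, 1.20 to 3.54 in vehicle libraries) and *Cdh5* (0 to 2.97 in DAPT, 0.885 to 2.40 in vehicle libraries) were near 0. Those read in every library included *Tek*, at 45.6 to 49.5 in DAPT and 27.3 to 55.2 in vehicle libraries. *Vwf* was at 22.1 to 31.7 in DAPT and 16.8 to 21.6 in vehicle libraries. *Egfl7* was at 23.1 to 37.0 in DAPT and 40.7 to 49.8 in vehicle libraries. The part of endothelial cells in the level of *Edn1* was not tested.

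With these changes known, the RefSeq promoters of the genes were searched for the core that the Notch effector RBPJ binds, TGGGAA, on both strands. Promoters here run from 250 bases before to 50 after a start site in GRCm38.p6. There were 11 of them for 9 of the genes, and none was matched for *Agtr1a*. The core lay in 4 of these 11 promoters, and in 25.6% of all 32851 promoters of the same length. The promoters of *Edn1* and *Npr3* held no match, and neither did that of *Npr2*. The promoter of *Edn1* (chr13:42301226-42301525, plus strand) is shown as that of the gene that fell most, and that of *Npr3* (chr15:11907322-11907621, minus strand) as the next, and neither has capitals because neither holds the core.
Edn1: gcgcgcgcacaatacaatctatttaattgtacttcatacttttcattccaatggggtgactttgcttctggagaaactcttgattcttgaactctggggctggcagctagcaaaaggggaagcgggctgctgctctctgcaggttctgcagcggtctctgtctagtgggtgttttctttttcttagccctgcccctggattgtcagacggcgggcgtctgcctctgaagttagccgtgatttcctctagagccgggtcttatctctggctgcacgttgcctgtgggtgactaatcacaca
Npr3: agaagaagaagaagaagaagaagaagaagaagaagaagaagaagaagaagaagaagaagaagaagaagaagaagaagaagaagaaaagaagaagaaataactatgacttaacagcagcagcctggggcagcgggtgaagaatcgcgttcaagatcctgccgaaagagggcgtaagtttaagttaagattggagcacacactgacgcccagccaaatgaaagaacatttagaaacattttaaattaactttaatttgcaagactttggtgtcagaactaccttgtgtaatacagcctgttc
Both sequences lack the 6 letters within this window only, which says nothing of sites elsewhere. The N-box CACNAG, the site of Hes factors, occurred once in each of these promoters, and in 42.5% of all promoters. Exact matches to TGANTCA, the consensus of the AP-1 site, occurred in none of the 11 promoters, and in 7.81% of all promoters. Sites that differ from these letters were not counted, so this does not show that AP-1 sites are absent.

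The endothelin receptors were read weakly in both groups. *Ednra* (chromosome 8) had 18.0, 17.9 and 16.8 normalised counts in DAPT replicates 1 to 3, and 21.6, 15.6 and 23.9 in vehicle replicates 1 to 3. The DAPT values lay inside the vehicle range, and the log2 change of -0.18 had a 95% interval of -0.70 to 0.34 (limma adjusted p = 0.689). No difference in *Ednra* was detectable at this depth. *Ednrb* (chromosome 14) had 32.2, 41.0 and 45.6 in DAPT, and 32.0, 34.8 and 21.3 in vehicle libraries. DAPT replicate 1 lay within the vehicle range, and the other DAPT libraries lay above it. The log2 change was 0.44 (95% interval just below 0 to 0.87, limma adjusted p = 0.171), so the gene did not pass. *Ednrb* also marks Schwann cells and melanocytes, and of 6 markers of those cells 3 were tested and 0 passed, with *Sox10* and *Dct* at or near 0 in every library. Others of the list were read in every library, *Pmel* at 92.6 to 97.6 in DAPT and 88.5 to 99.7 in vehicle libraries, and *Mitf* at 121 to 143 in DAPT and 99.7 to 138 in vehicle libraries. Their part in the level of *Ednrb* was not tested. Of the other endothelin genes listed, the precursor-cleaving enzyme *Ece1* was at 2758 ± 51.7 in DAPT and 2739 ± 29.0 in vehicle libraries (limma adjusted p = 0.887). Its relative *Ece2* was at 194 ± 5.93 in DAPT and 205 ± 10.4 in vehicle libraries (limma adjusted p = 0.56). The ligand gene *Edn3* had 0 reads in all 6 libraries and *Edn2* lay under the filter.

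*Agtr1a* (chromosome 13) was barely read and was not tested. Its normalised counts were 5.69, 6.31 and 3.96 in DAPT replicates 1 to 3, and 7.52, 8.41 and 13.3 in vehicle replicates 1 to 3. The DAPT values lay below the vehicle values, by 0.75 on the log2 scale, but each rests on few reads. Without the filter on low values the limma adjusted p was 0.294. *Agtr1a* has a closely similar copy in mouse, *Agtr1b*, which may share its reads, and which was read at 4.21 to 5.69 in DAPT and 6.01 to 10.6 in vehicle libraries.

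Of 12 other listed genes of the renin-angiotensin system 6 were tested. Of these 4 rose, 0 fell and 2 missed the threshold, where 9.22% of all tested genes rose. Their median log2 change was 0.29. *Ace*, the enzyme that makes angiotensin II, rose 1.56-fold, at 74.9 ± 7.18 in DAPT and 48.5 ± 12.3 in vehicle libraries (limma adjusted p = 0.00791). *Agtrap*, whose product binds the AT1 receptor and promotes its internalisation, rose 1.23-fold, at 1302 ± 30.9 in DAPT and 1055 ± 28.6 in vehicle libraries (limma adjusted p = 6.74e-06). The other risen genes, named after their values were seen, were the precursor *Agt*, at 53.3 ± 7.0 in DAPT and 34.5 ± 3.91 in vehicle libraries, and the prorenin receptor *Atp6ap2*, at 1901 ± 30.8 in DAPT and 1575 ± 59.4 in vehicle libraries. The calls of *Ace* and *Agt* were lost with DESeq2 on 5 libraries (adjusted p of 0.249 and 0.235), that of *Ace* also without DAPT replicate 3 (0.0568) and that of *Agt* without DAPT replicate 2 (0.0996). *Ren1*, *Agtr2*, *Mas1*, *Mme* and *Agtr1b* lay under the filter.

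Both chains of soluble guanylate cyclase were well read in every library. *Gucy1a3* had 2564, 2681 and 2561 normalised counts in DAPT replicates 1 to 3, and 3487, 3167 and 3060 in vehicle replicates 1 to 3. All DAPT libraries lay below all vehicle libraries, and the log2 change was -0.31 (SE 0.0414, 95% interval -0.40 to -0.23, limma adjusted p = 4.25e-06). It passed in all 15 alternatives, with log2 changes of -0.35 to -0.26. *Gucy1b3* had 727, 681 and 696 in DAPT, and 735, 766 and 761 in vehicle libraries. These groups did not overlap either, by a narrow margin, but the log2 change of -0.10 (95% interval -0.20 to -0.01, not adjusted) did not pass (limma adjusted p = 0.141). The genes lie next to each other on chromosome 3 among protein-coding genes of GRCm38.p6, where RefSeq names them *Gucy1a1* and *Gucy1b1*.

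The chains pair in the dimer, and the ratio of their levels per length was taken within each library. *Gucy1a3* over *Gucy1b3* was 2.46, 2.75 and 2.57 in DAPT replicates 1 to 3, and 3.32, 2.89 and 2.81 in vehicle replicates 1 to 3. The DAPT ratios were all below the vehicle ratios, with means of 2.60 ± 0.145 in DAPT and 3.01 ± 0.272 in vehicle libraries. An exact permutation test, two-sided, gave p = 0.1, the smallest that 3 libraries against 3 allow, and 0.15 when adjusted over the 3 ratios tested. The other alpha chain, *Gucy1a2*, chosen after its value was seen, was at 282 ± 16.6 in DAPT and 265 ± 20.6 in vehicle libraries (limma adjusted p = 0.445). *Gucy1b2* lay under the filter.

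Of the start sites searched, the second RefSeq start of *Gucy1a3* (chr3:82145024-82145323, minus strand) held the most matches to the core, 4, and is shown for that reason. Over all promoters 0.368% held 3 or more, but that share does not apply to a promoter picked by its count. Of the 4 matches in this start of *Gucy1a3*, 3 lay 110, 78 and 60 bases before the start and 1 lay 27 bases after it. They are in capitals in the sequence below, as TGGGAA or as its reverse complement TTCCCA, beside the promoter of *Gucy1b3* (chr3:82074662-82074961, minus strand), which held 1 match 65 bases before its start.
Gucy1a3, second start: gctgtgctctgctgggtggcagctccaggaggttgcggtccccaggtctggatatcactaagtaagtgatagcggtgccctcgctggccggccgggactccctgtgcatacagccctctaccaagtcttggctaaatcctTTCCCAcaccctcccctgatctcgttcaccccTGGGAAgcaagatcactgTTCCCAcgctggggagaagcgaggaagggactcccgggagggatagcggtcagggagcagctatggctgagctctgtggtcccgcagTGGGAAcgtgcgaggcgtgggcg
Gucy1b3: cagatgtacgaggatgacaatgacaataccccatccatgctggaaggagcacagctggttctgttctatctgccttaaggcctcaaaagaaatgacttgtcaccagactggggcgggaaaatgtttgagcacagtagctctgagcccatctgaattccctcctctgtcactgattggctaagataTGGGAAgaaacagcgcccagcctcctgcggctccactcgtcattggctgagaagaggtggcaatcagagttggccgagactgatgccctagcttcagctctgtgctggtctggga
The first RefSeq start of *Gucy1a3* held no match. *Prkg1* and *Pde5a*, which did not pass, each held 1 match in a promoter. The start in use cannot be read from counts per gene, and a match of letters is not a measured site.

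Of 11 further listed genes of nitric oxide supply and soluble cyclase, the synthase genes *Nos1*, *Nos2* and *Nos3* and the cyclase gene *Gucy1b2* lay under the filter. Of the 7 tested 0 rose, 1 fell and 6 missed the threshold, where 8.91% of all tested genes fell. Their median log2 change was -0.02. The gene that fell was *Ddah1*, whose enzyme breaks down an inhibitor of nitric oxide synthase, at 370 ± 27.5 in DAPT and 470 ± 28.9 in vehicle libraries, 1.27-fold lower (limma adjusted p = 0.000458). With DESeq2 on 5 libraries its adjusted p was 0.062.

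The natriuretic peptide receptors moved in opposite directions. *Npr3* (chromosome 15), the clearance receptor, had 461, 500 and 421 normalised counts in DAPT replicates 1 to 3, and 771, 747 and 798 in vehicle replicates 1 to 3. Every DAPT library lay far below every vehicle library, and the log2 change was -0.75 (SE 0.0584, 95% interval -0.87 to -0.63, limma adjusted p = 9.49e-10). *Npr2* (chromosome 4), the receptor that makes cyclic GMP, had 2108, 2029 and 2042 in DAPT, and 1737, 1893 and 1841 in vehicle libraries. Its groups did not overlap, and the small log2 change of 0.18 passed (SE 0.0390, 95% interval 0.10 to 0.26, limma adjusted p = 0.00206). Both calls held in all 15 alternatives, with adjusted p up to 2.42e-07 for *Npr3* and up to 0.0409 for *Npr2*. The sources used here do not say whether counting used strand, and without strand, reads of a gene and of its antisense partner cannot be told apart. In GENCODE M21 an antisense gene, Gm12473, shares 266 exon bases with *Npr2*, and it was at 110 ± 9.78 in DAPT and 80.7 ± 7.08 in vehicle libraries (log2 change 0.44, limma adjusted p = 0.0124). *Npr3* shares 321 exon bases with an opposite-strand gene, Gm5144, which had no row in the deposited table. The same limit touches *Edn1*, *Ednra* and *Pde5a*, which share 35, 91 and 55 exon bases with opposite-strand genes. The partners of *Edn1* and *Pde5a* had no row either, and that of *Ednra* had means of 0.982 in DAPT and 0.696 in vehicle libraries.

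*Npr2* over *Npr3*, per length, was 6.69, 5.93 and 7.09 in DAPT replicates 1 to 3, and 3.29, 3.70 and 3.37 in vehicle replicates 1 to 3. The ratio averaged 6.57 ± 0.588 in DAPT and 3.46 ± 0.218 in vehicle libraries, a difference of 0.92 on the log2 scale. The groups were well apart, and the same exact permutation test gave its smallest possible p, 0.1, or 0.15 adjusted over the 3 ratios. From the authors' deposited RPKM of group means the ratio was 6.54 under DAPT and 3.45 in vehicle. That RPKM is proportional to the mean of the same libraries, so it is no separate check. With the same counts divided by GENCODE lengths the mean ratio was 9.04 in DAPT and 4.76 in vehicle libraries. The counts belong to the deposited lengths, so these values show only that the size of the ratio depends on the length used. *Npr1*, the receptor for the heart's natriuretic peptides, was at 104 ± 2.69 in DAPT and 90.9 ± 6.59 in vehicle libraries (limma adjusted p = 0.27). It was the only one of 6 further natriuretic peptide genes to be tested. The ligand *Nppc* lay under the filter at 4.30 ± 0.397 in DAPT and 4.63 ± 0.790 in vehicle libraries. For the endothelin receptors the ratio *Ednra* over *Ednrb* overlapped between groups, at 0.724, 0.565 and 0.479 in DAPT and 0.876, 0.581 and 1.46 in vehicle libraries (exact two-sided permutation p = 0.2, also 0.2 adjusted).

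**Figure D2:**
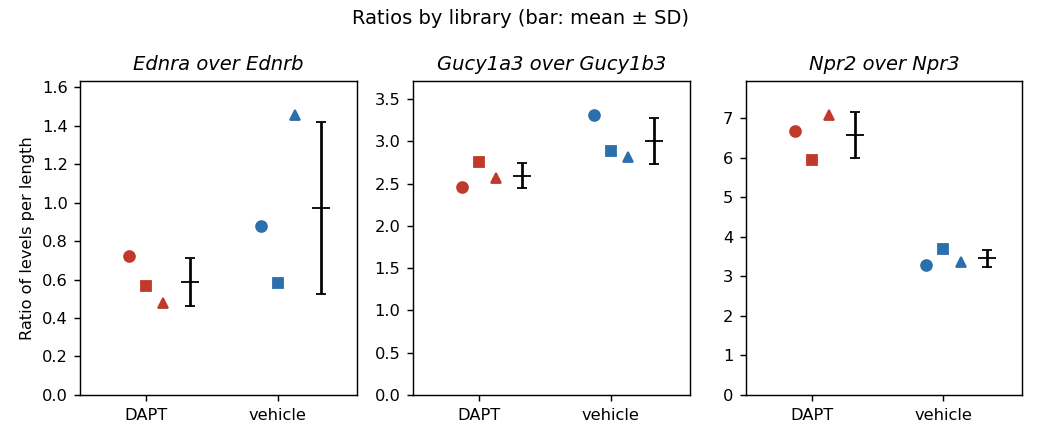
Ratio of the levels per length of paired genes (vertical axis, from 0) in the 3 DAPT libraries (red) and the 3 vehicle libraries (blue), with mean and SD. *Npr2* over *Npr3* is 5.93 to 7.09 in DAPT libraries and 3.29 to 3.70 in vehicle libraries, while *Ednra* over *Ednrb* overlaps between groups.

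Downstream of cyclic GMP neither the kinase nor the phosphodiesterase passed. *Prkg1* (chromosome 19) had 42.6, 49.5 and 33.7 normalised counts in DAPT replicates 1 to 3, and 54.6, 54.0 and 58.4 in vehicle replicates 1 to 3. The DAPT libraries were all lower, with a log2 change of -0.42 (95% interval -0.77 to -0.07, not adjusted) that did not pass (limma adjusted p = 0.0941). It passed in 0 of 15 alternatives, with adjusted p of 0.0581 to 0.745. *Pde5a* (chromosome 3) had 212, 229 and 231 in DAPT, and 203, 228 and 228 in vehicle libraries. Its groups overlapped, and the interval of its log2 change of 0.03 ran from -0.14 to 0.20 (limma adjusted p = 0.861).

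**Figure D3:**
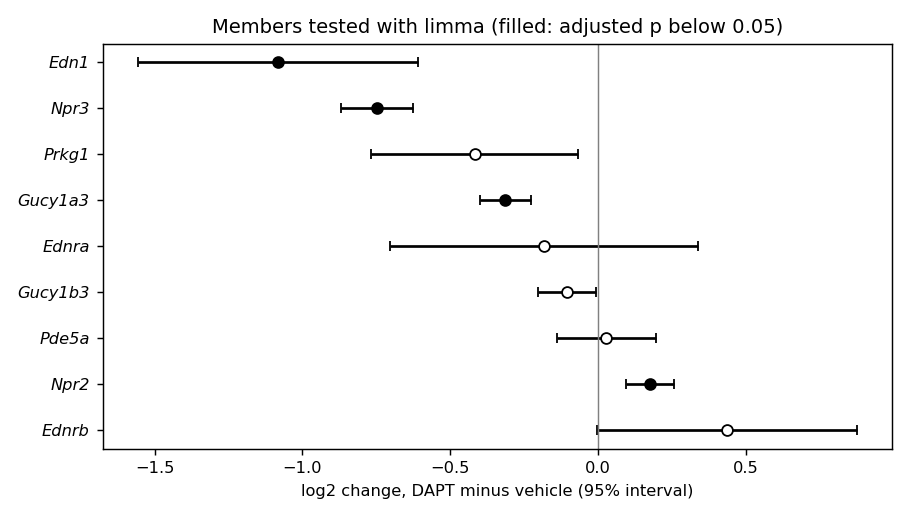
Log2 change, DAPT minus vehicle, with its 95% interval (horizontal axis) for the 9 genes tested, from the most lowered at the top to the most raised at the bottom, filled where the limma adjusted p is below 0.05. *Edn1* (-1.08), *Npr3* (-0.75), *Gucy1a3* (-0.31) and *Npr2* (0.18) are filled, and the widest intervals belong to *Ednra*, *Edn1* and *Ednrb*, which had few reads.

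Among partners of the kinase, 11 genes were listed and 8 tested: 0 rose, 1 fell and 7 missed the threshold. Over all tested genes 8.91% fell. The partners had a median log2 change of -0.09. The gene that fell, named after its value was seen, was *Trpc6*, a calcium-permeable channel that the kinase phosphorylates. It was at 15.1 ± 4.03 in DAPT and 30.5 ± 5.46 in vehicle libraries, 1.98-fold lower (limma adjusted p = 0.00724), and without DAPT replicate 2 its adjusted p was 0.0514. DESeq2 on 5 libraries gave it a log2 change of -1.09 and no adjusted p. *Kcnmb1* and *Pln*, targets of the kinase in contractile muscle, had 0 reads in all 6 libraries. Of 11 genes of cyclic nucleotide breakdown and export 8 were tested, 1 rose and 1 fell, with a median log2 change of -0.04. Over all tested genes 9.22% rose and 8.91% fell. *Pde1a*, a calcium-activated phosphodiesterase, fell 1.43-fold, at 123 ± 10.2 in DAPT and 178 ± 16.9 in vehicle libraries (limma adjusted p = 0.000591). *Abcc4*, a transporter that exports cyclic nucleotides, rose 1.33-fold, at 513 ± 38.1 in DAPT and 386 ± 22.4 in vehicle libraries (limma adjusted p = 4.15e-05).

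Compared per length, the 10 genes were led by the cyclases in both groups. Levels in this paragraph are normalised reads per kilobase of deposited gene length. In DAPT libraries the order was *Gucy1a3* (559 ± 14.7), *Npr2* (296 ± 6.05), *Gucy1b3* (216 ± 7.21), *Npr3* (45.2 ± 3.87), *Pde5a* (24.8 ± 1.14), *Prkg1* (18.0 ± 3.4), *Edn1* (7.99 ± 2.14), *Ednrb* (5.43 ± 0.931), *Ednra* (3.12 ± 0.114) and *Agtr1a* (2.16 ± 0.493). The neighbours *Edn1* and *Ednrb* overlapped there. In vehicle libraries the first 8 places were in the same order, from *Gucy1a3* (696 ± 47.7) down to *Ednrb* (4.03 ± 0.982), followed by *Agtr1a* (3.95 ± 1.26) and *Ednra* (3.62 ± 0.761). Overlapping neighbours in vehicle libraries were *Pde5a* and *Prkg1*, and *Ednrb*, *Agtr1a* and *Ednra*. The order depends on gene length. The exons of *Prkg1* span 10861 bases in GENCODE M21 and 2327 bases in the deposited table. Dividing the same counts by the GENCODE length gives 3.86 in DAPT and 5.13 in vehicle libraries. Reads over exons outside the deposited length may not have been counted, so these quotients are not measured levels. With the same limit, division by GENCODE lengths put *Npr2* (441) above *Gucy1a3* (373) in DAPT, but below it in vehicle libraries (391 and 465).

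**Figure D4:**
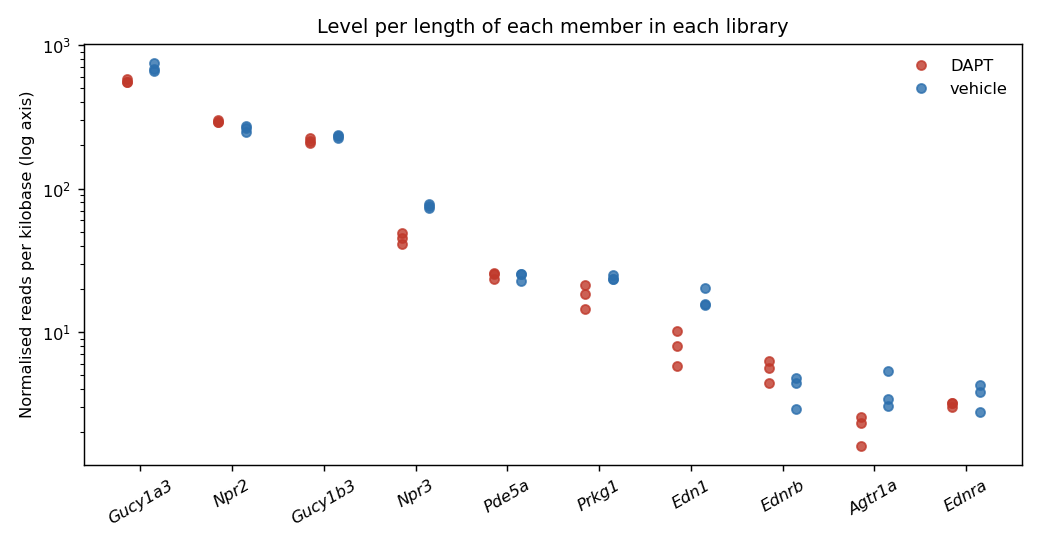
Normalised reads per kilobase of deposited gene length (vertical log axis) of the 10 genes, ordered by their vehicle mean, in the 3 DAPT libraries (red) and the 3 vehicle libraries (blue). *Gucy1a3*, *Npr2* and *Gucy1b3* stand above 200 in every library, and *Ednrb*, *Ednra* and *Agtr1a* below 7.

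Of 33 listed receptors and receptor partners 22 were tested: 4 rose, 5 fell and 13 missed the threshold, with a median log2 change of -0.28. Among all tested genes 9.22% rose and 8.91% fell. *Calcrl*, the shared chain of the receptors for adrenomedullin and CGRP, rose 1.68-fold, at 223 ± 24.5 in DAPT and 133 ± 13.1 in vehicle libraries (limma adjusted p = 4.66e-06). Of its listed partners, *Ramp1* lay under the filter, and *Ramp2* (limma adjusted p = 0.848) and *Ramp3* (limma adjusted p = 0.524) did not pass. *P2rx4*, an ATP-gated channel, rose 1.25-fold, at 822 ± 8.56 in DAPT and 662 ± 67.9 in vehicle libraries (limma adjusted p = 0.000271). *Adora2a*, an adenosine receptor that relaxes vessels through cyclic AMP, fell 1.49-fold, at 358 ± 20.1 in DAPT and 533 ± 23.4 in vehicle libraries (limma adjusted p = 1.43e-07). *S1pr1*, a receptor for sphingosine 1-phosphate, fell 1.42-fold, at 76.4 ± 7.94 in DAPT and 109 ± 11.2 in vehicle libraries (limma adjusted p = 0.00566). The others that passed, named after their values were seen, were *P2ry1* (2.27-fold higher) and *S1pr2* (1.11-fold higher), and *Adra1d* (1.39-fold lower), the thrombin receptor *F2r* (1.37-fold lower) and *S1pr3* (1.25-fold lower). With DESeq2 on 5 libraries *Adra1d* (adjusted p = 0.102), *S1pr1* (0.0795) and *S1pr2* (0.223) were not called, and the call of *S1pr2* was also lost without DAPT replicate 1 (0.0828), without DAPT replicate 3 (0.0515) and without vehicle replicate 2 (0.0502).

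Genes that couple these receptors to calcium and contraction were tested in 20 of 21 cases: 4 rose, 1 fell and 15 missed the threshold. Their median log2 change was 0.00. Over all tested genes 9.22% rose and 8.91% fell. *Plcb1*, a phospholipase that acts below Gq-coupled receptors, rose 1.59-fold, at 200 ± 5.19 in DAPT and 126 ± 14.4 in vehicle libraries (limma adjusted p = 1.72e-05). *Arrb1*, an arrestin that switches off activated receptors, rose 1.29-fold, at 1040 ± 55.2 in DAPT and 805 ± 14.4 in vehicle libraries (limma adjusted p = 2.36e-06). The others, named after their values were seen, were *Gna13* (1.10-fold higher), *Rhoa* (1.08-fold higher) and *Rgs16* (1.88-fold lower), which limits signalling by G proteins. The call of *Rhoa* was lost with edgeR (adjusted p = 0.128) and DESeq2 (0.279) on 5 libraries and without DAPT replicate 2 (0.0782), DAPT replicate 3 (0.105) or vehicle replicate 2 (0.148), and *Gna13* was not called by DESeq2 (0.101). Over all 8 lists 74 of 109 genes were tested, 13 rose and 9 fell. These were 29.7% of those tested, beside 18.1% of all tested genes.

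**Figure D5:**
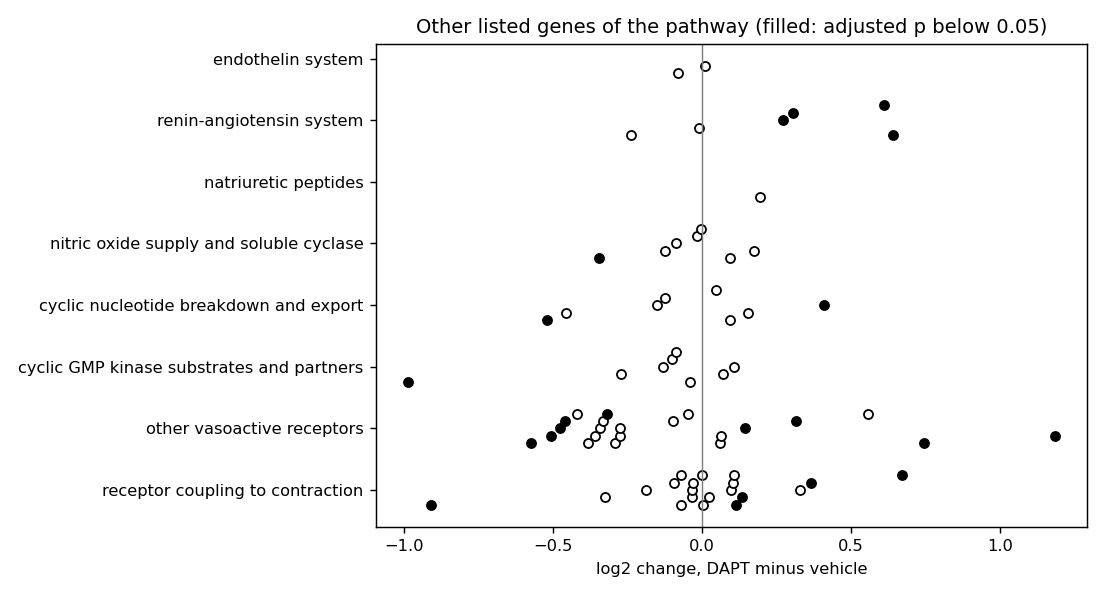
Log2 change, DAPT minus vehicle (horizontal axis), of the 74 tested genes in the 8 lists of further pathway genes, 1 point per gene, filled where the limma adjusted p is below 0.05. In the renin-angiotensin row 4 of 6 points are filled and lie to the right, while the receptor row has 4 filled points to the right and 5 to the left.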

How the data were processed

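RNA from 6 libraries was sequenced, 3 per group, with groups and replicate numbers from the sample labels. The column letters C and I were taken to stand for control and inhibitor, a reading the labels leave unstated. TruSeq libraries were made from total RNA, per the labels' protocols. The submitters' processing notes name mm9 and the tools DESeq 1.16.0, HTSeq 0.5.4p3 and TopHat2 2.0.4, with no roles. Annotation release, filters and strand use: not given in the sources used here. Each library's deposited signal is a read count divided by 1 size factor, since 100% of its values came out whole, within 0.01, once multiplied by that factor. DAPT replicate 3 has a size factor of 1.01, too near 1 for its reads to be accepted as recovered, so count tests used 5 libraries. The authors deposited 1 RPKM per group mean, so ratios planned on RPKM per library used normalised counts divided by the deposited length. The deposited log2 ratio had the sign of DAPT over vehicle in 12210 of 12210 genes with both means above 50, and the deposited p-values and adjusted p-values are given only as the authors'.

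Limma 3.58.1 in R 4.3.3 was run with an intensity trend on log2(normalised count + 1), two-sided, Benjamini-Hochberg adjusted over 14906 genes. Fold changes are on that scale, which makes those of low genes smaller. The procedure was tested on simulated data. Alternatives were pseudocounts of 0.5 and 5, no filter and a filter of 50, quantile normalisation, robust empirical Bayes, a replicate block, each library left out, and edgeR 4.0.16 and DESeq2 1.42.0 on recovered reads. Named pathway genes were up to 2 risen and 2 fallen called genes per list with a mean of at least 50, or the 2 most abundant where none was called. Members and lists were chosen with earlier results of these data known. Of 7 marker lists, those for macrophages and leukocytes (1 of 4 tested rose, 0 fell) and pericytes (1 of 3 rose, 1 fell) are not discussed further. Promoters came from RefSeq (GRCm38.p6), matched by symbol or synonym.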

Additional observations from a re-analysis of the deposited data

How the results depend on the processing

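The 4 calls among the 10 genes held with each library left out, with log2 changes of -1.26 to -0.88 for *Edn1*, -0.35 to -0.26 for *Gucy1a3*, 0.14 to 0.20 for *Npr2* and -0.81 to -0.68 for *Npr3*. Limma called 2703 genes, 1375 higher and 1328 lower, and DESeq2 on 5 libraries called 982, 445 higher and 537 lower. Among further pathway genes limma called 22, 13 higher and 9 lower, and DESeq2 called 13, 8 higher and 5 lower. DESeq2 gave *Edn1* a log2 change of -1.10 without a call (adjusted p = 0.0537). DESeq2 here lacks DAPT replicate 3. Limma without that library called 1954 genes, among them *Edn1* (limma adjusted p = 0.00492). The cause of the difference was not tested further. With edgeR on the same libraries 1945 genes and all 4 members were called. *Pde5a*, at -0.028 to 0.067 with 1 library left out, changed sign without vehicle replicate 1 (-0.028) and was not called in any alternative. With a filter of 50, *Edn1*, *Ednra* and *Ednrb* were not tested, and 3 of the 10 genes were called. The difference in ratio, log2, ran from -0.96 to -0.30 for *Ednra* over *Ednrb*, -0.26 to -0.14 for *Gucy1a3* over *Gucy1b3* and 0.87 to 1.00 for *Npr2* over *Npr3* with 1 library left out, an alternative added after seeing the data. Ratios on RPKM per library were not run.

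Same-numbered libraries did not deviate together (correlations 0.0267, -0.0175 and 0.0099), and DAPT replicates 2 and 3 both correlated best with vehicle replicate 3. With the replicate block 2732 genes were called, among them the same 4 members, and no member's call changed. Low reads limit *Agtr1a*, *Ednra*, *Ednrb*, *Edn1* and *Prkg1*.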
